A study of Drosophila melanogaster with 2 samples.

Results

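The 10 genes described here are the muscle regulator Mef2 and 9 genes of muscle structure, Tm1, Tm2, Msp300, Mhc, Act57B, bt, sls, up and wupA, out of 13968 protein-coding genes. They were chosen by name, but with the signals of the peaks at 3 of them (Mef2, Tm1 and Msp300) already known, so promoter signals and counts over the 10 genes are a description and carry no test. The data are peak lists for the transcription factor cropped (crp), from ChIP-seq with an anti-GFP antibody on whole embryos of both sexes aged 0 to 16 hours. The flies were a transgenic line that stably expresses crp with GFP at its C terminus, and 2 biological replicates, numbered 1 and 3, form the single group. The labels point to a possible control, not analysed here, and do not say whether peaks were called against it.

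In the fly embryo Mef2, a MADS-box factor, is needed for the differentiation of all muscle types and acts on many genes of the contractile apparatus. That apparatus, the sarcomere, is built of actin filaments carrying tropomyosin and troponin, of myosin filaments, and of giant titin-like proteins that hold the filaments in register. Many of these genes have several starts, from which different isoforms are made, in muscle or elsewhere. Cropped is the fly relative of vertebrate AP-4, a bHLH leucine zipper factor that binds the E-box CAGCTG. Chromatin of all embryonic cells was mixed, so binding in fewer cells and weaker binding per cell cannot be told apart, and muscle is one tissue among many.

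The sequences that matter most belong to Tm1, since its peak marks 1 of 8 annotated starts. To compare the marked start with 2 others of the gene, the 150 bases upstream of Tm1-RG, of Tm1-RH, and of Tm1-RC and Tm1-RI together are given on the plus strand of arm 3R of dm6 (5′ to 3′, from the RefSeq copy of the release 6 genome). Capitals mark CAGCTG, sought on both strands.
Tm1-RG, chr3R:15281221-15281370: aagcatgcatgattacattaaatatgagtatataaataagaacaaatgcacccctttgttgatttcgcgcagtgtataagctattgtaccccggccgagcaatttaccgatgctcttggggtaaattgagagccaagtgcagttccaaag
Tm1-RH, chr3R:15286269-15286418: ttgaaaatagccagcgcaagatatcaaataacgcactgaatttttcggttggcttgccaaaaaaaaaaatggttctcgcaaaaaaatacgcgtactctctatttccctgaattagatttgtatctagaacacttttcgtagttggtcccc
Tm1-RC and Tm1-RI, chr3R:15287862-15288011: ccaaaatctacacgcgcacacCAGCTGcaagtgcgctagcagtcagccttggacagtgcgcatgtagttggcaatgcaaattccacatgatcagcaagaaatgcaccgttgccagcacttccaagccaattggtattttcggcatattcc
Only the last of the 3 holds the E-box. Over all 40 annotated starts of the 10 genes, 3 (7.50%) had CAGCTG in these 150 bases, against 1953 of 19630 starts (9.95%) of all protein-coding genes.

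A further CAGCTG copy lay just past the start of Tm1-RC and Tm1-RI, and the peak near Msp300 had copies on both sides of its summit. Each is given with its flanks as 30 bases of the dm6 plus strand (5′ to 3′, RefSeq copy), to let the E-boxes be compared. The last line shows the single match to the MEF2 consensus within 150 bp of any of these summits, also in capitals.
Tm1, past the start, chr3R:15288028-15288057: cccatccagcaaCAGCTGgttccagtaaaa
Msp300, upstream of the summit, chr2L:5100035-5100064: atgtcgccgcggCAGCTGgagtggcgaacg
Msp300, downstream of the summit, chr2L:5100203-5100232: ggctgacagcgtCAGCTGgcctaacagcaa
Msp300, MEF2 consensus, chr2L:5100277-5100306: cactggttatTTAAAAATAGcttacttatt
The MEF2 consensus was found in the 301 bp around 16.6% of all 1122 peaks in the authors' optimal list (the peaks that passed the irreproducible discovery rate procedure, IDR) and around 12.7% of all 26505 candidates in the pooled list, so a match is common in windows of this size.

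Tm1 encodes a tropomyosin, the coiled-coil protein that lies along actin filaments, and its peak sat on an internal start. The gene spans chr3R:15278220-15308779, and the summit at 15287963 was 49 bp upstream of the start shared by Tm1-RC and Tm1-RI, which lies 9792 bp past the first start and within an intron of the longer transcripts. The signal, a value per peak given by the authors, was 171 in the pooled list, 115 in replicate 1 and 59.5 in replicate 3. Both replicates placed the summit within 6 bp of the pooled one, and the pooled peak ranked at 253 of the 1122 IDR peaks. The log2 ratio of replicate 3 to replicate 1 was -0.95 here, against a median of -0.16 (SD 0.57) over the 1101 IDR peaks found in both replicates, and 6.27% of those had a lower ratio. Relative to other peaks Tm1 was thus stronger in replicate 1, but in replicate 3 too only 1.57% of its 30000 candidates had a higher signal.

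The 2 marked transcripts have fewer exons than most others of the gene. Tm1-RC and Tm1-RI have 3 and 4 exons and 1323 bp of coding sequence, whereas Tm1-RT and Tm1-RG, from the first and second starts, have 10 exons with 846 and 855 bp. Tm1-RH has 5 exons with 2034 bp. The coding length of 1323 bp is within the range of the gene, from 483 to 2133 bp. In flies the products known as Tm1-I/C are atypical tropomyosins, described as adaptors that load kinesin onto oskar mRNA in the female germ line. The other Tm1 starts had weaker pooled candidates, outside the IDR list, or none. The first start (Tm1-RT) and that of Tm1-RH had no pooled summit within 1000 bp, the starts of Tm1-RG and of 10 further transcripts shared a candidate of 19.6, and the starts of Tm1-RA, Tm1-RQ and Tm1-RR shared one of 43.5 (18.7 in replicate 1 and 32.5 in replicate 3). That last summit lay 728 bp upstream of Tm1-RA but 583 bp from the start of CG45218 on the other strand, which was nearer. A peak at a later start is not rare among genes with peaks: of 195 genes whose own start was nearest to their IDR summit and that have a start over 500 bp from the first, 81 (41.5%, Wilson 95% interval 34.9 to 48.6%) had the summit at a later one.

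**Figure D1:**
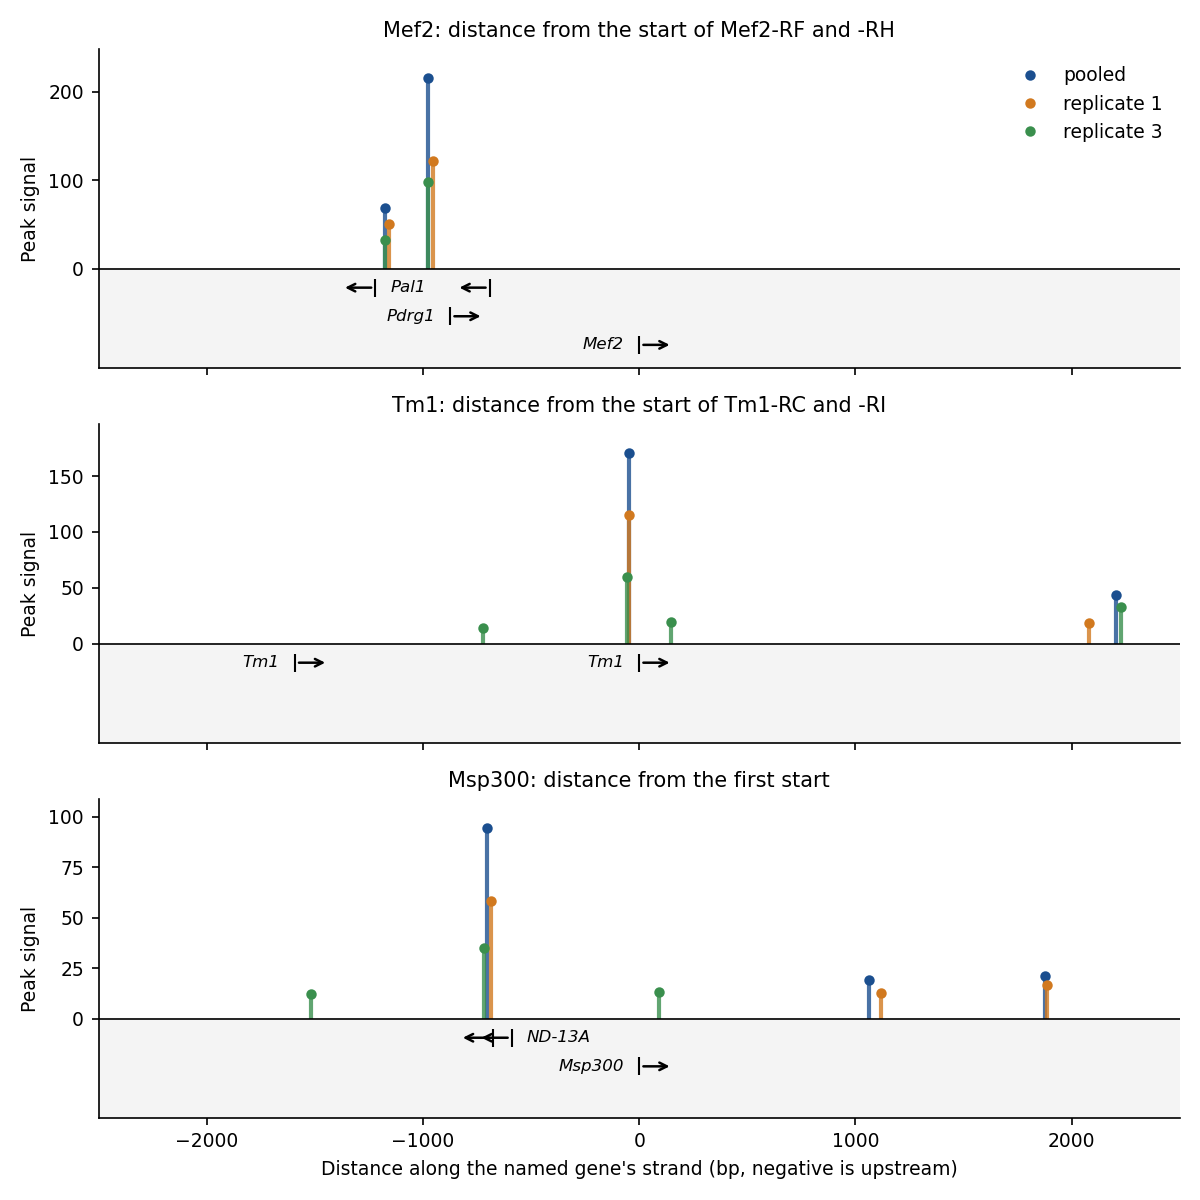
Peak signal (vertical axis) against distance in bp along the strand of Mef2, Tm1 or Msp300 (horizontal axis, 0 at the start named above each panel, negative upstream), with sticks for summits in the pooled list, replicate 1 and replicate 3 and arrows for annotated starts and their direction. The Tm1 summit stands 49 bp from its start, while the Mef2 and Msp300 summits stand 975 and 703 bp upstream, near the starts of Pdrg1 and of ND-13A. Starts of Pal1 lie on both sides of that Mef2 summit.

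Tm2, the second tropomyosin gene, lies next to Tm1 on the same strand at 15310193 to 15315197 and had no IDR peak. Its strongest promoter candidate had a pooled signal of 25.6, at position 9848 of 26505, with its summit 153 bp downstream of the start of Tm2-RC. In replicate 1 the strongest candidate there had 14.7 and in replicate 3 it had 13.5, 66 and 332 bp from a start, so the strongest ones lay at different positions. The pooled summit of 25.6 had a match of 12.45 in replicate 3 and none in replicate 1. Of the 2 pooled Tm2 summits, the other 1 was matched in both replicates. None of the 5 Tm2 starts had CAGCTG in the 150 bases upstream.

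Msp300 encodes a giant nesprin that links nuclei to the cytoskeleton and positions them in muscle fibres, and its peak lay at a neighbour. The gene spans chr2L:5100877-5207002 with 5 starts. The summit at 5100174 had a signal of 94.4 in the pooled list, 58.2 in replicate 1 and 34.9 in replicate 3, with a log2 ratio of replicate 3 to replicate 1 of -0.74. It was 703 bp upstream of the first Msp300 start, that of Msp300-RH, -RI, -RJ and -RK, but 28 bp downstream of a start of ND-13A, a gene for a subunit of respiratory complex I that runs the other way, and inside the 5′ UTR of that gene. All 3 lists placed the summit within 41 bp of that ND-13A start. Only 75 of the 1550 genes with an IDR summit within 1000 bp of a start (4.84%) had theirs at least as far away as Msp300.

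The other Msp300 starts had candidates only. The pooled signals were 30.2 near the starts of Msp300-RD, -RL and -RB, 31.2 near that of Msp300-RE, -RG and -RM, and 23.0 near that of Msp300-RF. A pooled summit just past the 3′ end of the gene had 54.9 (19.6 in replicate 1 and 32.1 in replicate 3), just below the lowest IDR signal of 61.3. This one too was at a neighbour, 55 bp downstream of the start of Cyp28d2, a cytochrome P450 gene.

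Mef2 had the highest promoter signal of the 10 genes, and that summit also lay nearer to the starts of neighbours. The gene is on the minus strand of arm 2R at 9913496 to 9958858. The summit at 9959833 had a pooled signal of 216, with 122 in replicate 1 and 97.6 in replicate 3, and ranked at 112 of the 1122 IDR peaks. It was 975 bp upstream of the start of Mef2-RF and Mef2-RH, and only 9 of the 1550 genes with an IDR promoter summit (0.581%) had theirs at that distance or farther. Pdrg1, the fly relative of a prefoldin-like protein, starts 101 bp from it on the same strand as Mef2. Pal1, which encodes an enzyme of peptide amidation and runs the opposite way, has starts on both sides, and the summit was in its 5′ UTR. A second IDR summit 200 bp farther out, which had 68.2 (49.9 and 32.1 in replicates 1 and 3), fell 1175 bp from Mef2, just outside the window, and 45 bp from a Pal1 start.

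Inside Mef2 there was 1 IDR summit, in the first intron of Mef2-RF at 9955577, 3281 bp downstream of the start. It was near the lower end of the IDR list, with a signal of 64.7 at rank 1057, a −log10 q of 2.48 against 3.21 at the 3 promoter summits, and 25.4 in replicate 1 and 35.2 in replicate 3. No start of any protein-coding gene was nearer to it than that of Mef2. At the other Mef2 starts the signal was low. The start of Mef2-RG had a pooled candidate of 24.2 at 115 bp, and the start used by the remaining 8 transcripts, Mef2-RA to -RD and -RI to -RL, had none within 1000 bp, the nearest of 35.1 being 1079 bp downstream.

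Counted by window, then, 3 of the 10 genes had an IDR promoter summit, against 11.1% of all protein-coding genes (1550 of 13968) and 21.9% of the 7075 genes whose window held a pooled candidate. The genes were chosen with these peaks in view, so nothing is read from that count. By the nearest start only Tm1 of the 3 owned its summit, against 930 of the 1550 genes over the genome (60.0%, Wilson 95% interval 57.5 to 62.4%). Shared windows were usual: 76.2% of the 1550 genes had a start of another gene within 1000 bp of the same summit. The 10 genes have 4.00 starts each and all protein-coding genes 1.41, which gives them more windows. Counted by start, 3 of 40 (7.50%) had an IDR summit within 1000 bp and 1 of 40 (2.50%) within 200 bp, against 10.3% and 7.01% of all 19630 starts.

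**Figure D2:**
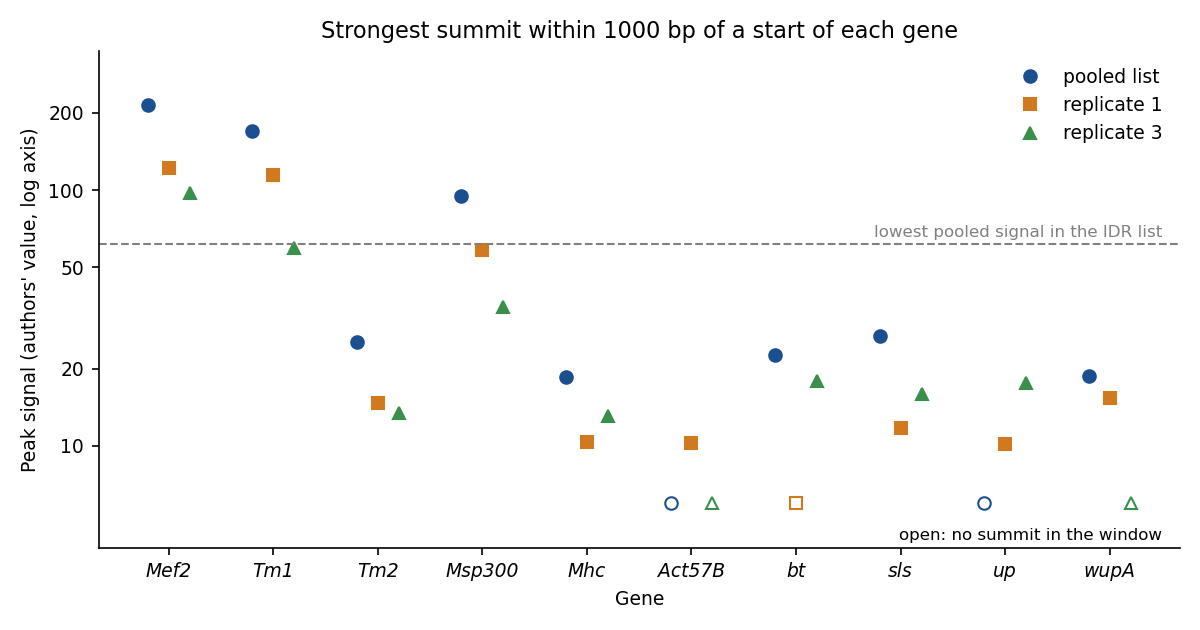
Signal of the strongest summit within 1000 bp of a start (vertical log axis) for each of the 10 genes (horizontal axis) in the pooled list, replicate 1 and replicate 3, with open symbols where a list had no summit there and a dashed line at the lowest pooled signal of the IDR list, 61.3. Pooled signals at Mef2, Tm1 and Msp300 lie above the line, and the other 5 genes with a pooled summit lie between 18.7 and 26.9.

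The remaining sarcomere genes had weak candidates or none. The candidate lists are titled by the authors as peaks and background, and the pooled one starts at a signal of 18.4, with a median of 23.5. sls, which encodes a titin-like spring protein at the Z-disc, had a promoter signal of 26.9 in the pooled list, 377 bp upstream of its single annotated start. In replicate 1 its strongest promoter summit had 11.8 and in replicate 3 it had 15.9, at 323 bp downstream and 551 bp upstream of that start. bt, the gene of the titin-like kinase projectin on the fourth chromosome, had 22.6 in the pooled list at 947 bp from the start of bt-RH and 18.0 in replicate 3, with no promoter summit in replicate 1. The pooled sls summit had weaker matches in both replicates, of 10.3 and 14.2, and the pooled bt summit in replicate 3 only.

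Mhc encodes the muscle myosin heavy chain, the motor of the thick filament. Its best promoter candidate had a pooled signal of 18.7 and ranked at 25567 of 26505 in the pooled list. It had a match of 10.4 in replicate 1 and none in replicate 3, whose own best promoter candidate had 13.1. The replicates' summits were at different starts, 109 bp from that of Mhc-RT in replicate 1 and 4 bp from that of Mhc-RO in replicate 3. The 14 transcripts of the start with most isoforms (Mhc-RA and others) had a candidate of 18.6 within 200 bp. Just outside the window, 1101 bp upstream of the first Mhc start, lay a stronger pooled candidate of 29.4, at rank 5899. It had a match of 17.3 in replicate 1 and none in replicate 3. No CAGCTG copy lay in the 150 bases upstream of any Mhc start.

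The troponin genes were low too. wupA, which encodes troponin I, had 18.8 in the pooled list at 412 bp from the start of wupA-RE and wupA-RF, 15.4 in replicate 1 and no promoter summit in replicate 3. up, which encodes troponin T, had no pooled summit within 1000 bp of its 6 starts, although replicate 1 had one of 10.2 and replicate 3 one of 17.6, at different starts. Act57B, an actin gene of larval muscle, was the only one of the 10 with no pooled summit in or near the gene. Its single candidate in any list had 10.3 in replicate 1, at 814 bp from the start and rank 25797 of 30000.

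In all, 8 of the 10 genes had a pooled candidate in a promoter window, 9 had one in replicate 1 and 8 in replicate 3, against 50.7%, 52.2% and 54.8% of all protein-coding genes. The median of the strongest pooled promoter signal was 26.2 over these 8 genes and 28.4 over the 7075 genes with one. By start, 24 of 40 (60.0%) had a pooled summit within 1000 bp and 8 of 40 within 200 bp, against 49.1% and 19.2% of all starts. Starts close together share summits, so these starts are not separate cases: only 18 pooled summits lay within 1000 bp of any start of the 10 genes.

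Most candidates at these genes were away from the genes' own starts, as was most of the sequence searched (380132 bp with 40 starts). The same share was not taken over all genes, so no avoidance of starts is read from it. Of the 96 pooled summits in or within 1000 bp of the genes, 78 were over 1000 bp from every start of the gene itself, 2 of them near the start of Cyp28d2, and the median signal of the 78 was 24.0. By the annotation of the gene itself, 61 of the 96 were intronic, 18 were in coding exons, 5 in a 5′ UTR, 5 in a 3′ UTR and 7 outside the gene. The gene bodies held 2.47 pooled summits per 10 kb, against 2.02 over all protein-coding gene bodies. For IDR summits inside genes the values were 0.0555 and 0.0550 per 10 kb. The first of these rests on only 2 summits, so no likeness is read from it. An IDR summit inside the gene was found in 2 of the 10 genes, Mef2 and Tm1, against 3.67% of all protein-coding genes. Both are long genes, of 45363 and 30560 bp. The 3 longest of the 10, Msp300 (106126 bp), sls (75931 bp) and bt (52075 bp), had no IDR summit inside. Whether gene length bears on the count was not tested. The Tm1 peak was known when the genes were chosen, so nothing is read from this count.

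The density differed between the long genes. Tm1 had 15 pooled summits (4.91 per 10 kb) and Mef2 had 20 (4.41 per 10 kb), while sls had 4 over 75931 bp (0.527 per 10 kb) and Msp300 19 over 106126 bp (1.79 per 10 kb). bt had 18 (3.46 per 10 kb), in a chromosome whose gene bodies averaged 5.02, against 2.40 on arm 2L and 2.16 on arm 3L. Its strongest was an intronic candidate of 42.4 (17.1 in replicate 1 and 28.1 in replicate 3), 43756 bp from the nearest bt start. Mhc had 6 (2.70 per 10 kb), the strongest an intronic one of 28.6.

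**Figure D3:**
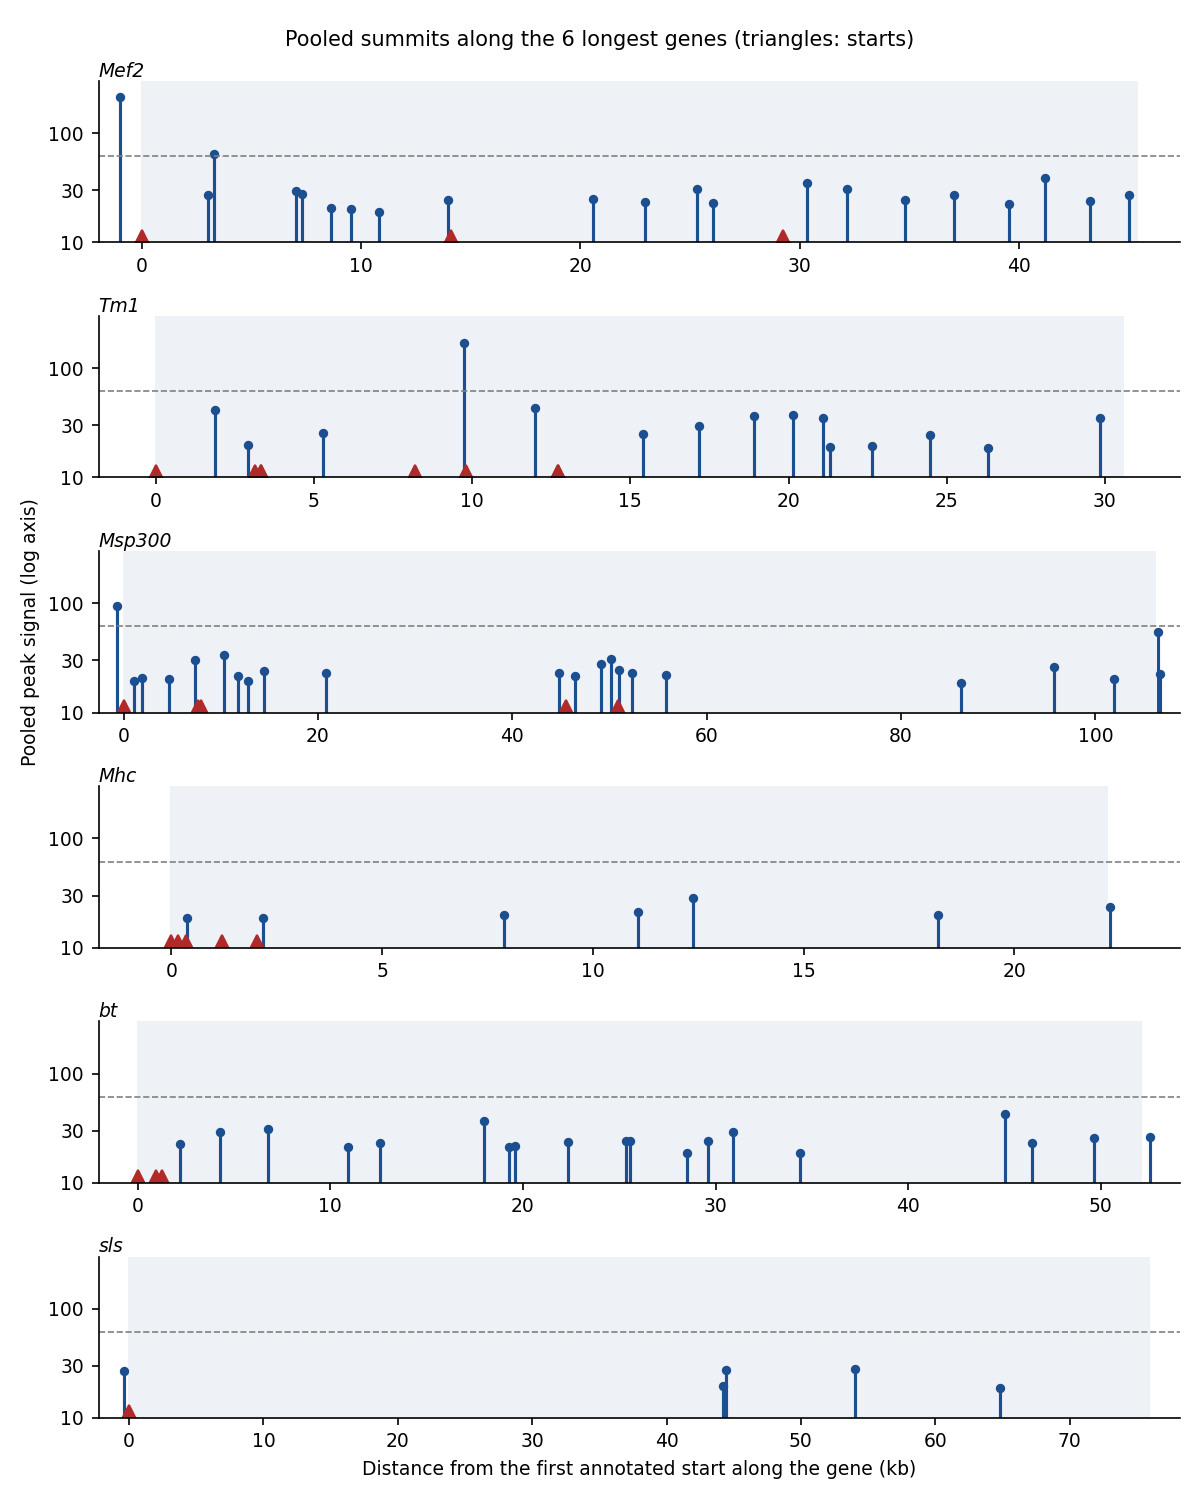
Pooled signal (vertical log axis) of each summit against distance in kb from the first annotated start (horizontal axis) for Mef2, Tm1, Msp300, Mhc, bt and sls, with the gene shaded, triangles at annotated starts and a dashed line at 61.3, the lowest signal of the IDR list. The summits above the line are 1 upstream of and 1 inside Mef2, 1 at an internal Tm1 start and 1 upstream of Msp300.

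Agreement between replicates is what the IDR list was chosen by, and the summits at these genes followed it. All 4 IDR summits at the 10 genes had a summit within 150 bp in both replicates, as did 98.1% of all IDR peaks. Of the 92 other pooled summits at these genes 22 (23.9%) did, and over the genome 6066 of 25383 (23.9%). At Tm1 6 of 15 pooled summits, the IDR summit included, were found in both replicates, at Msp300 7 of 22, at bt 5 of 19, at Mef2 5 of 21, at Mhc 1 of 7 and at up 0 of 4. The count was 1 of 2 at Tm2, 1 of 5 at sls and 0 of 1 at wupA.

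**Figure D4:**
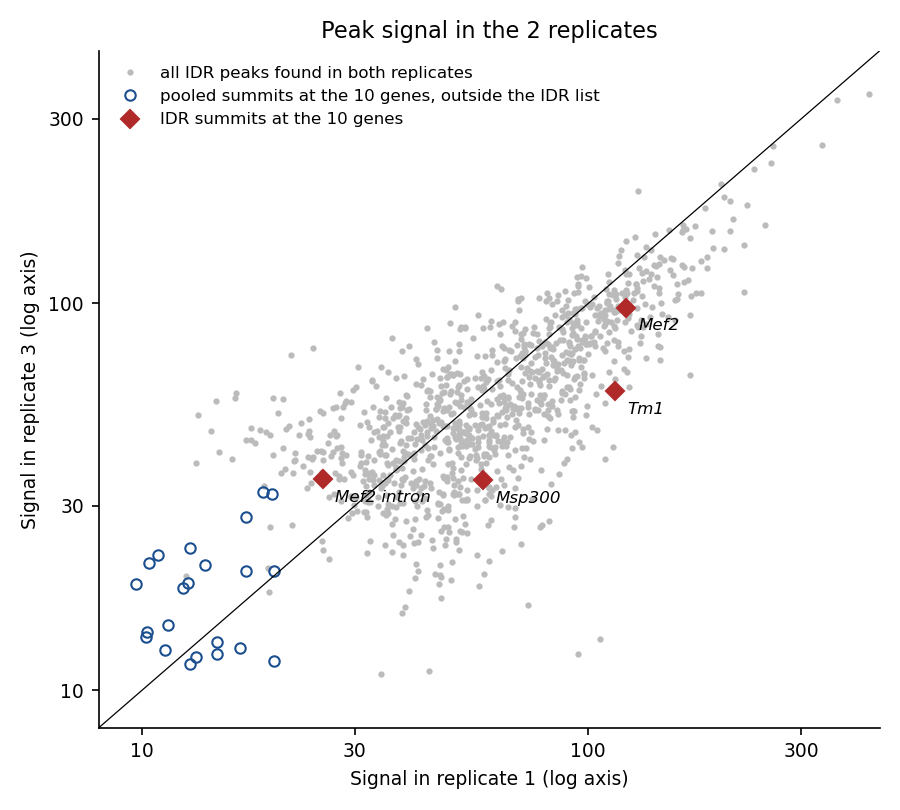
Signal in replicate 3 against signal in replicate 1 (log axes) at the 1101 IDR peaks found in both, at the 22 other pooled summits of the 10 genes found in both and at the 4 IDR summits of the 10 genes, with the line of equal signal. Mef2, Tm1 and Msp300 lie below the line, as the median log2 ratio of -0.16 also does, and the Mef2 intron summit lies above it.

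CAGCTG was near each of the 4 IDR summits, though seldom at the centre. The whole site was within 50 bp of the summit at 1 of 4, that near Msp300, where it began 41 bp downstream, and such a site was present at 48.2% of all IDR summits. Within 100 bp it was present at 3 of 4, against 68.4%, and within 150 bp at 4 of 4, against 77.3%. Tm1 had a copy on each side, at 80 bp upstream and 77 bp downstream, and Mef2 had one that began 56 bp downstream of its promoter summit. Of the 96 pooled summits at the genes 5 (5.21%) had the site within 50 bp, against 6.44% of all pooled summits. The direction changed with the window: 14.6% against 11.2% within 100 bp, and 15.6% against 15.0% within 150 bp. The MEF2 consensus was within 50 bp of 6 of the 96 (6.25%), against 4.35%, and within 50 bp of none of the 4 IDR summits, where 4.81% of all IDR summits had it. Within 150 bp it was at 20.8% of the 96, against 12.7% of all pooled summits. In the 150 bases upstream of starts the direction was the other way. The MEF2 consensus was there at 2 of the 40 starts of the genes (5.0%), against 6.73% of all protein-coding starts. CATATG, the E-box known for the mesoderm factor Twist, was within 150 bp of none of the 4, against 9.98% of all IDR summits. At the 96 pooled summits it was within 150 bp of 16 (16.7%), against 10.1% of all pooled summits, and within 50 bp of 5 (5.21%), against 3.53%. The 96 summits cluster in few genes and some of their windows overlap, so they are not separate cases.

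By signal in the pooled list and both replicates together, measured as the distance of log2 values over the 3 lists, the genes closest to Mef2 were Pal1 and Pdrg1, which share its summit, and CG14352 (distance 0.032). CG11779 and nanos, which share a summit, and Svip were closest to Tm1 (0.041, 0.041 and 0.103), and ND-13A, again at the shared summit, CG10948 and Wbp2 were closest to Msp300 (0, 0.051 and 0.051).

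The wider set of muscle genes was a list of 102 in 4 groups, the 10 genes among them. Of these, 5 had an IDR promoter summit (4.90%, Wilson 95% interval 2.11 to 11.0%), against 11.1% of all protein-coding genes, and in 2 of the 92 (2.17%, 0.598 to 7.58%) that are not among the 10. With a window of 500 bp the share of the 102 was 2.94% (3 genes), against 10.2% of all protein-coding genes, and among genes with a pooled candidate it was 7.35%, against 21.9%. A pooled candidate was in the window of 68 (66.7%), with a median signal of 26.3, against 50.7% of all genes and their median of 28.4. Genes with more starts have more windows, and the starts of the 102 genes were not counted here. By group, 1 of 27 regulators of muscle fate had an IDR summit (Mef2), 1 of 36 sarcomere and contractile genes (Tm1), 1 of 17 fusion genes (Hem) and 2 of 22 genes of nuclear positioning and attachment (Msp300 and Pax). By the nearest start, only Tm1 and Pax owned theirs.

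Pax encodes paxillin, an adaptor at integrin adhesion sites where muscles attach. Its summit had a signal of 199.9, with 105 in replicate 1 and 93.2 in replicate 3, and lay 78 bp upstream of the first of its 7 starts, that of Pax-RC, with CAGCTG within 50 bp. Hem encodes a subunit of the SCAR complex, which drives actin assembly in myoblast fusion. Its summit had 173, with 97.0 and 79.7 in replicates 1 and 3, but stood 94 bp from the start of IleRS, a tRNA synthetase gene, and 376 bp from that of Hem.

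Below the IDR list, the 2 strongest promoter candidates of each group had pooled signals from 31.8 to 55.1. They were LanB2, a laminin chain gene (55.1, with 28.8 in replicate 1 and 26.8 in replicate 3), and rhea, the talin gene (45.3), among attachment genes, and sd (41.0), the partner of Vestigial, and Pdp1 (36.3) among regulators. The sd summit was closer to the start of PGRP-LE than to that of sd. SCAR (35.1) and WASp (31.8), activators of actin branching, led the fusion genes, and Mlp84B, a muscle LIM protein gene (33.4), and cpb, the gene of the beta subunit of actin capping protein (33.1), led the sarcomere and contractile genes. The summits of rhea and Pdp1 had no replicate 1 summit within 150 bp. Replicate 1 did have other promoter candidates, of 35.2 for rhea and 11.7 for Pdp1, against 32.9 and 24.6 in replicate 3.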

How the data were processed

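The 4 dm6 peak lists were used: candidates of replicate 1 and replicate 3 (30000 each), pooled candidates (26505) and the optimal IDR list (1122). The authors titled the deposited candidate lists as peaks and background for input to IDR. Which aligner, peak caller and IDR cutoff were used is not given in the sources used here. The authors deposited a signal value for each peak, used here as given, and a −log10 q value. Pooled and replicate signals have different scales: at IDR peaks the pooled value was a median of 0.999 times the sum of both replicates. The lists give no read counts, so depth is unknown. The labels call the replicates biological, from different biosamples of 1 fly line. Summits came from the tenth column, and coordinates are dm6, counted from 1. The dm3 lists were not used here.

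Starts came from Ensembl release 115. A promoter summit lay within 1000 bp of an annotated start. A replicate summit within 150 bp of a pooled one was its match. Intervals are Wilson 95% intervals and cover counting error only. Motifs were sought on both strands with whole copies inside the window. The 10 genes, the list of 102 and the rules for counts and names (each gene of the list with an IDR promoter summit, the 2 strongest others per group, nearer neighbours and the 3 genes of most similar signal) were chosen with earlier results of these data known. Of the 102 symbols, 3 were older ones matched through the RefSeq gene table. No test was made. The software was pandas 2.3.3, SciPy 1.17.1, NumPy 2.4.6 and matplotlib 3.10.9 under Python 3.11.15, and the assignment of summits and motifs was tested on simulated data.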

Additional observations from a re-analysis of the deposited data

How the results depend on the processing

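With a window of 500 bp the number of the 10 genes with an IDR promoter summit was 1 (Tm1), since the Mef2 and Msp300 summits lie farther out. It was 2 with the 5′-most start of each gene (Mef2 and Msp300, without Tm1), 2 with the 561 IDR peaks of higher signal, and 3 in the other alternatives, among them the 1122 strongest candidates of either replicate alone, which stand for leaving out the other one. The share of all protein-coding genes was 10.2% with 500 bp, 13.1% with 2000 bp, 6.49% with the 561 stronger peaks and 21.9% among genes with a pooled candidate, and it ran from 10.7% to 11.2% when 1 replicate was left out. For the 102 muscle genes the share of 4.90% became 2.94% with 500 bp, 5.88% with 2000 bp, 3.92% with the 5′-most start or the 561 stronger peaks, 7.35% among genes with a pooled candidate and 4.90% to 5.88% when 1 replicate was left out. With the 5′-most start alone, 5 genes had a pooled promoter candidate and 3 owned the nearest start, in place of 8 and 6. The 561 stronger peaks held 2 of the 4 IDR summits at the genes. CAGCTG was within 50 bp of 1 of the 3 IDR promoter summits and within 100 bp of 3, and the count within 50 bp was 0 with the 561 stronger peaks and 0 to 2 when 1 replicate was left out. The Msp300 peak, the 1 with such a site, ranked at 715 and so was not among the 561. In replicate 1 the Mef2 summit was shifted by 19 bp, and the site was within 50 bp of it. Other causes were not tested. The median of the strongest promoter signal was 26.2 in the pooled list and 14.73 to 17.78 in single replicates, whose signals are on a lower scale. Candidates per 10 kb were 2.78 and 2.92 in the replicate lists. No paired analysis was possible because there is 1 group.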
